A study of Mus musculus with 6 samples.

Results

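Glucose breakdown, the side branches that take up surplus glucose, and the response to low oxygen were examined in glomerular endothelial cells (GEC) of diabetic mice through 52 genes chosen by name. They cover glucose carriers, glycolytic enzymes, lactate carriers, the polyol and fructose branch, the hexosamine and glyoxalase branch, the subunits of hypoxia inducible factor (HIF) with the enzymes that control them, known HIF targets, and Txnip. Of the 52, 48 had a probeset annotated to them alone. 43 of these passed the level filter, a linear signal of 100 or more in at least 3 arrays, among 12763 genes that passed it. Gpi1, Eno1, Akr1b3 and Sord were not analysed here, so the 2 enzymes of the polyol pathway proper went unmeasured. Hk2, Pfkfb4, Eno2 and Slc16a1 were under the level in all 6 arrays and Gfpt2 in all but 1.

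The tested animals were db/db mice, a model of obesity and type 2 diabetes caused by loss of the leptin receptor, labelled Tie2-GFP/ DB/DB. The controls were normal mice labelled Tie2-GFP/ +/+. Both groups were 7 months old and carried the same Tie2-GFP transgene, in which the promoter of the endothelial receptor gene Tie2 (Tek) drives green fluorescent protein, and fluorescent cells were sorted from sieved glomeruli. There were 3 samples a group, labelled as biological replicates, each on 1 Affymetrix Mouse Gene 1.0 ST array after amplification of the RNA. Precision is limited by the number of arrays. Values are log2 probeset signal. All 10 pan-endothelial markers passed the level, as for Kdr, the main VEGF receptor, with means of 13.18 in db/db and 13.08 in normal GEC. Array medians lay between 7.00 and 7.04, and on the first principal component the score of normal replicate 2 was 65.7, against -18.5 to -7.82 for the other arrays. Fewer cells of a type and less RNA per cell cannot be told apart in such samples.

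Glycolysis splits glucose into pyruvate in the cytoplasm, and endothelial cells are known to draw much of their energy from it even where oxygen is ample. When glucose is in excess, aldose reductase turns part of it into sorbitol, and other branches carry it to hexosamines or to reactive methylglyoxal, routes long studied in diabetic vessels. HIF is a pair of an oxygen-sensitive alpha subunit and a stable partner. With oxygen present, prolyl hydroxylases mark the alpha subunit, VHL binds the mark and the protein is destroyed. When oxygen falls the subunit persists and switches on glucose carriers, glycolytic enzymes and other targets.

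None of the 43 measured genes passed an adjusted p of 0.05 in limma's comparison of db/db with normal GEC, as none of the 12763 genes did (0% higher and 0% lower). The smallest adjusted p among them was 0.532. At an unadjusted p of 0.05, Pfkfb3, Hif1a and Egln3 were higher in db/db GEC, which is 3 of 43 beside 3.49% of all genes, and Higd1a and Ndrg1 were lower, 2 of 43 beside 3.07%. The remaining 38 passed in neither direction, so that 5 of 43 passed beside 6.57% (838) of all genes. All 3 db/db arrays lay above all 3 normal arrays for 3 of the 43, Pfkfb3, Hif1a and Pgk1, beside 7.39% of all genes, and below them for 6, Ndrg1, Higd1a, P4ha2, Kdm3a, Pfkl and Vhl, beside 5.92%. The median change of the 43 was -0.054 on the log2 scale (db/db minus normal), against 0.012 for all genes. 19 had the higher mean in db/db GEC and 24 the lower. Of the 5 genes past the unadjusted threshold, Pfkfb3 is a glycolytic regulator, Hif1a and Egln3 belong to the oxygen sensor, and Higd1a and Ndrg1 are HIF targets.

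**Figure D1:**
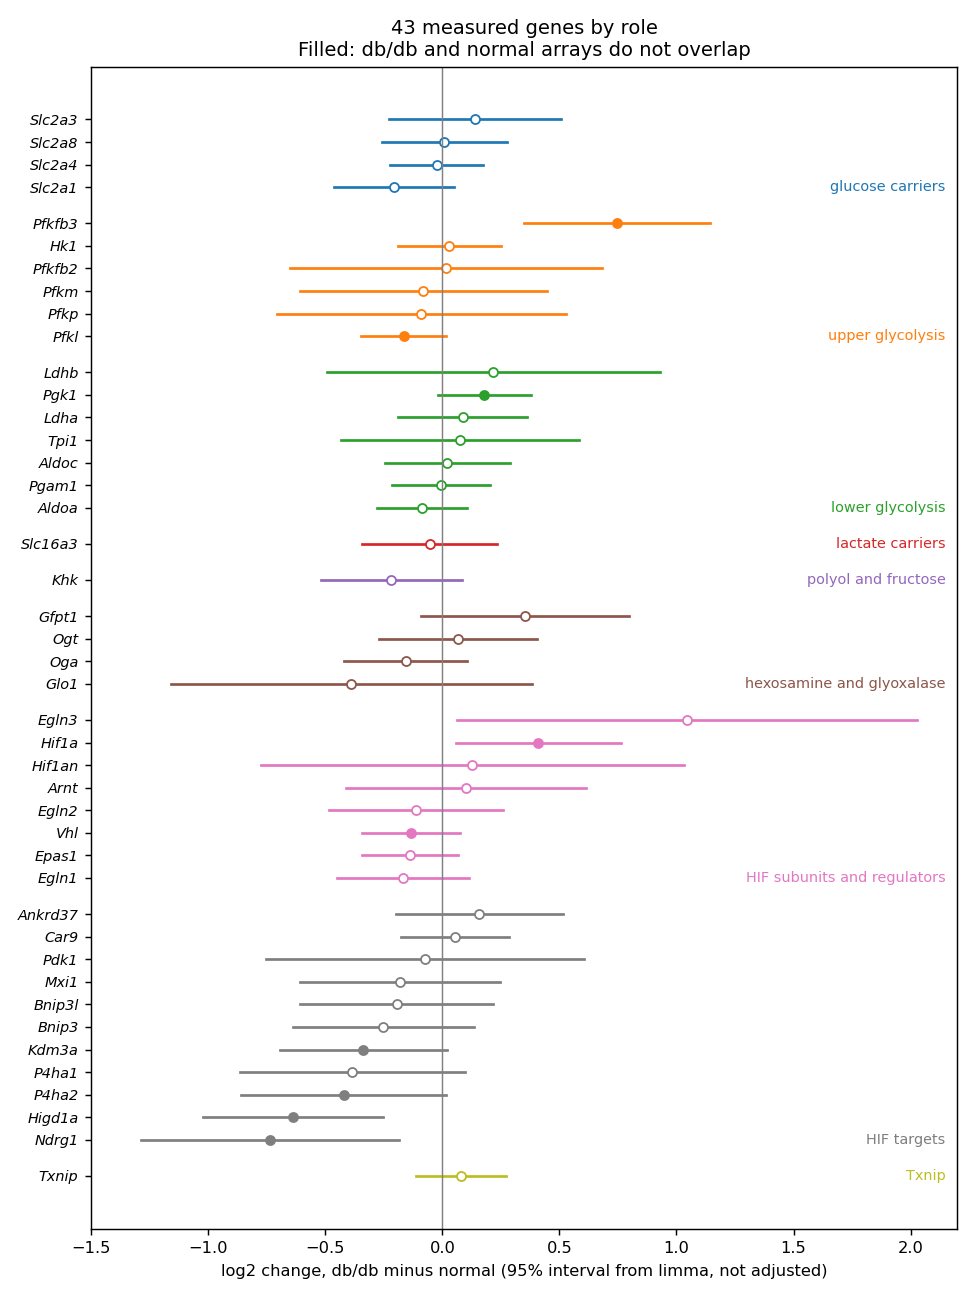
Change of each of the 43 measured genes in log2 units, db/db minus normal (x axis), in blocks by role, with limma's unadjusted 95% interval. Filled points are genes whose db/db and normal arrays do not overlap. Pfkfb3, at 0.75, stands alone among the glycolytic enzymes, Egln3 has the widest interval, from 0.06 to 2.03, and 9 of the 11 HIF targets lie left of 0.

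Levels of other cell types were read from marker lists beside these changes. The summed linear signals of the podocyte, mesangial and smooth muscle, proximal tubule, and erythroid and platelet lists overlapped between groups. Of the 4 podocyte markers past the level, 3 had the higher mean in db/db GEC. The other, Cdkn1c, was lower in every db/db array, with a change of -0.40 ± 0.12 (SE, limma unadjusted p = 0.0145, adjusted p = 0.677). The summed linear signal of 9 leukocyte markers was 710 to 928 in db/db and 646 to 706 in normal GEC, without overlap. Only Cd68 and Cd3e of the 9 passed the level, and the defining marker Ptprc was under it. Cd68, a macrophage protein, was 0.76 ± 0.27 higher in db/db GEC (log2, SE, limma unadjusted p = 0.0308, adjusted p = 0.752), and Cd3e, of T cells, had a change of -0.11. Of the 9 markers 6 had the higher mean in db/db GEC and 3 the lower, Ptprc and Cd79a among the lower. Without Cd68 the sums overlapped, at 550 to 680 in db/db and 547 to 600 in normal GEC. The sum of 5 distal nephron markers, 3 of them past the level, was 594 to 726 in db/db and 464 to 565 in normal GEC. Without Calb1, which was under the level and 1.24 higher on the log2 scale, the sums met, at 521 to 556 in db/db and 416 to 521 in normal GEC. The sum of 7 genes induced by cell isolation was lower, at 5757 to 6352 in db/db and 6378 to 7401 in normal GEC. Jun, the brightest of the 7, weighs most in this linear sum and was lower in every db/db array, with a change of -0.22. The sum was not taken without Jun. Of the 7 genes 4 had the lower mean in db/db GEC and 3 the higher, among them Atf3, which was 0.58 ± 0.16 higher. The sum of the 10 endothelial markers was 55913 to 57555 in db/db and 54274 to 55609 in normal GEC. Of the 10, 7 had the higher mean in db/db GEC and 3 the lower. 5 of the 10 were higher in every db/db array, beside 7.39% of all genes, and 2 were lower in every one, beside 5.92%. Cldn5 had the largest change of the 10, at 0.98 ± 0.27 (SE, limma unadjusted p = 0.0126, adjusted p = 0.645), with every db/db array higher. This sum was not taken without Cldn5, nor without Cdh5, which was higher in every db/db array with a change of 0.21. Tek itself, whose promoter drives the sorted fluorescence, was lower by 0.33, with a change of -0.33 ± 0.12 (unadjusted p = 0.0321, adjusted p = 0.754). The part of these differences in the changes described here was not tested.

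HIF binds a short core in the DNA near its targets. The RefSeq promoter table (GRCm38.p6) held a window of 250 bases before to 50 after the start for 38 of the 43 genes. The letters ACGTG or GCGTG, on either strand, stood in at least 1 window of 32 of these 38 genes (84.2%), against 64.8% of the measured genes with a window and 46.7% of all genes in the table. All 9 HIF targets with a window held a core, as did 4 of the 5 such genes whose db/db arrays all lay below the normal arrays and all 3 of those that lay above. Some genes had more than 1 window. Counted by window, a core stood in 42 of the 56 windows of the members (75%), against 59.6% of the 12880 windows of measured genes. It stood in 10 of 14 windows of HIF targets (71.4%), 4 of 7 of the genes below (57.1%) and all 4 of those above. A core therefore stood near genes of both directions. Higd1a is among those below through a probeset numbered among those of chromosome 3. The Higd1a probeset numbered with chromosome 9, where the window lies, overlapped between groups. CACGTG, the E-box, which overlaps ACGTG, stood in 8 of 38 (21.1%) against 11.2% of measured genes. The 250 bases before the start are shown for a pair of genes with higher means in db/db GEC, Pfkfb3 and Egln3, and a pair with lower means, P4ha2 and Higd1a, with each core on either strand in capitals. Ndrg1 and Epas1 had no window.
Pfkfb3 (chr2:11553930-11554179, minus strand): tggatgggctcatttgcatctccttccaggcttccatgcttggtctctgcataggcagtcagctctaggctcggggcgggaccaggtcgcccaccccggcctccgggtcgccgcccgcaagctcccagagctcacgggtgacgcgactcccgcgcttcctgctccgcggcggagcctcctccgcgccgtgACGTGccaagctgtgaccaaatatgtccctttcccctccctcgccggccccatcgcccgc
Egln3 (chr12:54203875-54204124, minus strand): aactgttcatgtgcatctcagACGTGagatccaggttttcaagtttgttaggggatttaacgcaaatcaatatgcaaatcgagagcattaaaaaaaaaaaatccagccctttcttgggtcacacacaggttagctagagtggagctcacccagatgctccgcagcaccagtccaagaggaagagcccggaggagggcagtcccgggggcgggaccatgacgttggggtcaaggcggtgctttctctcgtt
P4ha2 (chr11:54100674-54100923, plus strand): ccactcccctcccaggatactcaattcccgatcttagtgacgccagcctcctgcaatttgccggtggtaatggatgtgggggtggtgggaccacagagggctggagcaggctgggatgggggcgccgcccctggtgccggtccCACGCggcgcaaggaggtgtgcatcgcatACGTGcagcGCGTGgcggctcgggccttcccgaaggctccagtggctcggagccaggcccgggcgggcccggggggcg
Higd1a (chr9:121857797-121858046, minus strand): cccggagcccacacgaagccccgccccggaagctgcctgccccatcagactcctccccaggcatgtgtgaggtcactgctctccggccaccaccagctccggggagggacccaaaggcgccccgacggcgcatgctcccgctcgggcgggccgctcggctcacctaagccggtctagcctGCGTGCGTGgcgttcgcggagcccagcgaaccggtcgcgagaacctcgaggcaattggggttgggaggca
The Pfkfb3 stretch is from the first of its 2 windows, where 1 core began 60 bases before the start. The second Pfkfb3 window held 4 cores, 2 of them overlapping in an E-box. In the 250 bases shown, Egln3 held 1 core at 229 bases before the start and P4ha2 held 3 between 107 and 69 bases. Higd1a held an overlapping pair at 70 and 66 bases. Over all 300 bases, as counted for the second Pfkfb3 window, P4ha2 held 4 cores and Higd1a 3. These matches are letters in a window and were not set against any binding data.

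The 4 measured glucose carriers passed in neither direction, with a median change of -0.0077. Slc2a1 (GLUT1), the main carrier of endothelium, gave 7.29, 7.42 and 7.47 in db/db replicates 1 to 3, against 7.70, 7.45 and 7.65 in normal replicates 1 to 3. The highest db/db array lay just above the lowest normal one, and the change was -0.21 ± 0.10 (SE, unadjusted p = 0.0950, adjusted p = 0.822). Without normal replicate 2 the change was -0.28 with an unadjusted p of 0.0357. Of the 6 fits that each left out 1 array, only this 1 passed, and the highest unadjusted p among them was 0.245. Slc2a8 (GLUT8), a carrier held mostly inside the cell, gave 8.01, 8.10 and 8.04 in db/db and 8.09, 8.17 and 7.86 in normal GEC. Slc2a8 arrays were mixed between groups, with a change of 0.0086. The change was 0.14 for Slc2a3 (GLUT3) and -0.024 for Slc2a4 (GLUT4), the carrier that insulin recruits in muscle and fat, both with overlapping arrays.

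In upper glycolysis, Pfkfb3 stood apart. Its product makes fructose 2,6-bisphosphate, the strongest activator of phosphofructokinase, and is known to set glycolytic rate in sprouting endothelium. Pfkfb3 signal was 9.70, 9.57 and 9.40 in db/db replicates 1 to 3 and 8.97, 8.51 and 8.96 in normal replicates 1 to 3. Every db/db array was above every normal array by at least 0.44, and normal replicate 2 was the lowest. The mean was 9.56 ± 0.15 in db/db and 8.81 ± 0.26 in normal GEC (SD, n = 3 each), a change of 0.75 ± 0.16 (SE), or 1.68-fold, with a 95% interval of 0.35 to 1.14. The unadjusted p was 0.00399 and the adjusted p 0.532 (limma). Among the 5 genes past the unadjusted threshold it was the only one that passed it in all 19 alternatives, at 0.60 to 0.82, and the lowest of these was the value without normal replicate 2. Its relative Pfkfb2, known as the heart form, had a change of 0.016, and Pfkfb4 was below the level.

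Phosphofructokinase itself and the hexokinase at the head of the route had small changes. Pfkl, the liver-type phosphofructokinase, gave 7.12, 7.03 and 7.06 in db/db and 7.24, 7.23 and 7.25 in normal GEC. Each db/db array lay below the normal ones, by a gap of 0.10 at the nearest pair, and the change was -0.17 ± 0.073 (SE, unadjusted p = 0.0660, adjusted p = 0.788). Pfkl was described after its values were seen, as were Vhl, P4ha2 and Kdm3a below. Pfkp, the platelet-type enzyme, gave 8.95, 9.19 and 9.81 in db/db and 9.21, 9.63 and 9.39 in normal GEC, so that the highest and the lowest array were both db/db. The change of Pfkp was -0.090 ± 0.25, and that of Pfkm, the muscle type, -0.081. Hk1, the hexokinase that commits glucose to the cell, gave 12.09, 12.13 and 12.18 in db/db and 12.15, 11.98 and 12.17 in normal GEC, a change of 0.031 ± 0.090.

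The 7 measured genes of lower glycolysis had a median change of 0.075, and none passed. Pgk1, the first enzyme of the route that yields ATP, gave 10.94, 10.82 and 10.94 in db/db and 10.72, 10.77 and 10.67 in normal GEC. Pgk1 was higher in every db/db array, by 0.050 at the nearest pair, with a change of 0.18 ± 0.080 (SE, unadjusted p = 0.0698, adjusted p = 0.796). Aldoa, the aldolase of most tissues, gave 11.18, 11.05 and 11.10 in db/db and 11.23, 11.16 and 11.21 in normal GEC. Aldoa arrays overlapped narrowly, with a change of -0.088 ± 0.078. Ldha, which reduces pyruvate to lactate, had a change of 0.086, and Ldhb, its partner subunit, one of 0.22 with a normal SD of 0.54. The change was 0.075 for Tpi1, 0.022 for Aldoc and -0.0050 for Pgam1, enzymes between aldolase and enolase or, for Aldoc, the brain form of aldolase. Over the 13 glycolytic enzymes of both parts, 8 had the higher mean in db/db GEC and 5 the lower, with a median of 0.022. This split depends on the probesets read. Hk1 and Ldhb, counted as higher, had changes of -0.054 and -0.019 with the probesets numbered with the gene's own chromosome. Slc16a3 (MCT4), a carrier that exports lactate, gave 7.54, 7.47 and 7.71 in db/db and 7.75, 7.47 and 7.67 in normal GEC, with no separation and a change of -0.054 ± 0.12.

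**Figure D2:**
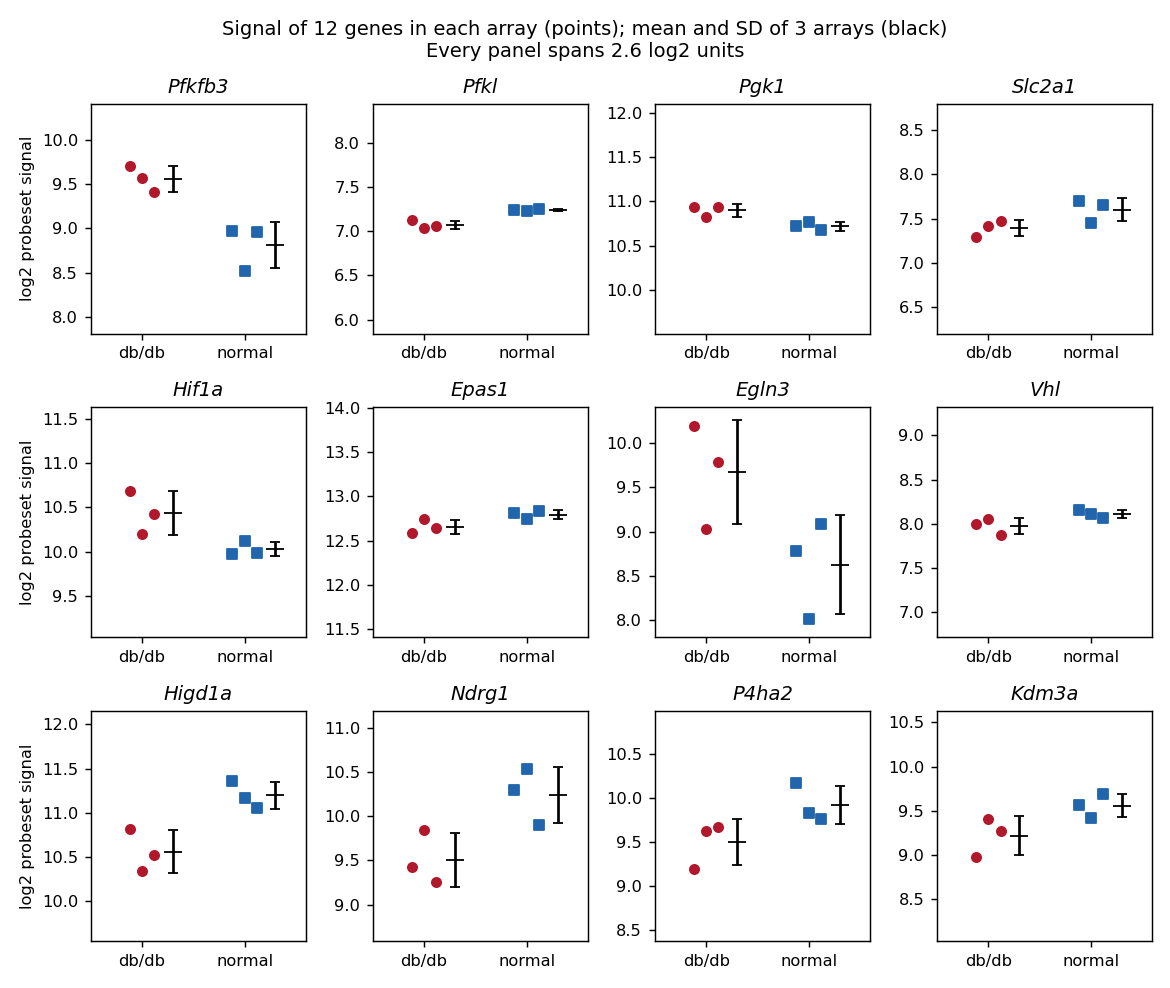
Log2 probeset signal (y axis) of 12 genes in each db/db (red circles) and normal (blue squares) array, with the mean and SD of 3 arrays in black, and every panel spanning the same range. The 3 db/db arrays of Pfkfb3 lie between 9.40 and 9.70, above all normal arrays, while those of Egln3 spread from 9.03 to 10.20.

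Of the polyol and fructose branch only Khk, ketohexokinase, which phosphorylates the fructose made from sorbitol, could be measured. Khk gave 8.06, 8.05 and 8.04 in db/db and 8.41, 8.37 and 8.03 in normal GEC. The db/db arrays were nearly equal, and normal replicate 3 was the lowest of all 6. The change was -0.22 ± 0.12 (SE, unadjusted p = 0.124, adjusted p = 0.837), and -0.34 without normal replicate 3 (unadjusted p = 0.0104, adjusted p = 0.602). Only that 1 of the 6 fits without 1 array passed for Khk, and their unadjusted p reached 0.312. Of other aldo-keto reductases, the change was -0.44 for Akr1b10, -0.29 for Akr1b8 and 0.036 for Akr1a1, and none passed.

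The hexosamine and glyoxalase genes went in mixed directions, and none of the 4 passed. Gfpt1, the rate-limiting enzyme of hexosamine synthesis, had a change of 0.35 ± 0.18 (unadjusted p = 0.1003, adjusted p = 0.825). Ogt, which attaches the sugar made by this route to proteins, gave 10.42, 10.59 and 10.34 in db/db and 10.28, 10.25 and 10.62 in normal GEC, a change of 0.067 ± 0.14. Oga, which removes that sugar, gave 10.004, 9.81 and 9.78 in db/db and 9.90, 10.14 and 10.03 in normal GEC, a change of -0.16 ± 0.11. Both overlapped between groups. Glo1, glyoxalase 1, which clears methylglyoxal, gave 8.96, 10 and 9.01 in db/db and 9.54, 9.97 and 9.63 in normal GEC. Db/db replicate 2 was the highest of all arrays and the other db/db arrays the lowest. The change was -0.39 ± 0.31 (unadjusted p = 0.260, adjusted p = 0.881), and without db/db replicate 2 it was -0.73 (unadjusted p = 0.00699, adjusted p = 0.649), so this 1 array decides the size. No other of the 6 fits without 1 array passed for Glo1, and their unadjusted p reached 0.562. Hagh, the next enzyme of methylglyoxal removal, was lower in every db/db array, by 0.24 ± 0.098 (change -0.24, unadjusted p = 0.0499, adjusted p = 0.782).

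Among the HIF subunits, Hif1a, the oxygen-sensitive alpha subunit found in most cells, gave 10.69, 10.20 and 10.42 in db/db replicates 1 to 3 and 9.98, 10.12 and 9.99 in normal replicates 1 to 3. The db/db arrays were all higher, by 0.081 at the nearest pair, and spread more widely than the normal ones. The mean was 10.44 ± 0.24 in db/db and 10.03 ± 0.080 in normal GEC (SD, n = 3 each), a change of 0.41 ± 0.14 (SE), or 1.33-fold, with an unadjusted p of 0.0295 and an adjusted p of 0.750 (limma). The unadjusted p was 0.0637 without db/db replicate 1, 0.0666 without db/db replicate 3, 0.0800 without normal replicate 1 and 0.0759 without normal replicate 3.

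Epas1 (HIF-2 alpha), the alpha subunit rich in endothelium, gave 12.58, 12.74 and 12.65 in db/db and 12.82, 12.74 and 12.83 in normal GEC. The groups met at db/db replicate 2 and normal replicate 2, and the change was -0.14 ± 0.083 (unadjusted p = 0.147, adjusted p = 0.843). The alpha subunits thus had changes of opposite sign, a difference that was not tested. Arnt, the stable partner, had a change of 0.10 ± 0.21.

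The enzymes that mark HIF had unlike changes. Egln3 (PHD3), a prolyl hydroxylase that is itself a HIF target, gave 10.20, 9.03 and 9.79 in db/db and 8.78, 8.01 and 9.09 in normal GEC. The lowest db/db array fell between normal replicates 1 and 3, so the groups overlapped. The mean was 9.67 ± 0.59 in db/db and 8.63 ± 0.55 in normal GEC (SD, n = 3 each), a change of 1.04 ± 0.40 (SE), or 2.06-fold, the largest of the 43 and the one with the largest SDs (unadjusted p = 0.0409, adjusted p = 0.754, limma). The unadjusted p was 0.116 without db/db replicate 1, 0.0998 without db/db replicate 3, 0.0692 without normal replicate 1 and 0.105 without normal replicate 2. Leaving out normal replicate 2, which had the lowest signal, gave a change of 0.74.

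Egln1 (PHD2), the main hydroxylase under normal oxygen, had a change of -0.17 ± 0.11 and Egln2 (PHD1) one of -0.11 ± 0.15, both with overlapping arrays. Vhl, which binds hydroxylated HIF, gave 7.99, 8.05 and 7.88 in db/db and 8.16, 8.11 and 8.06 in normal GEC. Vhl was lower in every db/db array, but by only 0.010 at the nearest pair, and the change was -0.14 ± 0.085 (unadjusted p = 0.165, adjusted p = 0.847). Hif1an, which blocks HIF by a second hydroxylation, gave 6.83, 6.88 and 7.84 in db/db and 7.14, 6.55 and 7.48 in normal GEC. Hif1an varied as widely within as between the groups, with a change of 0.13 ± 0.36.

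**Figure D3:**
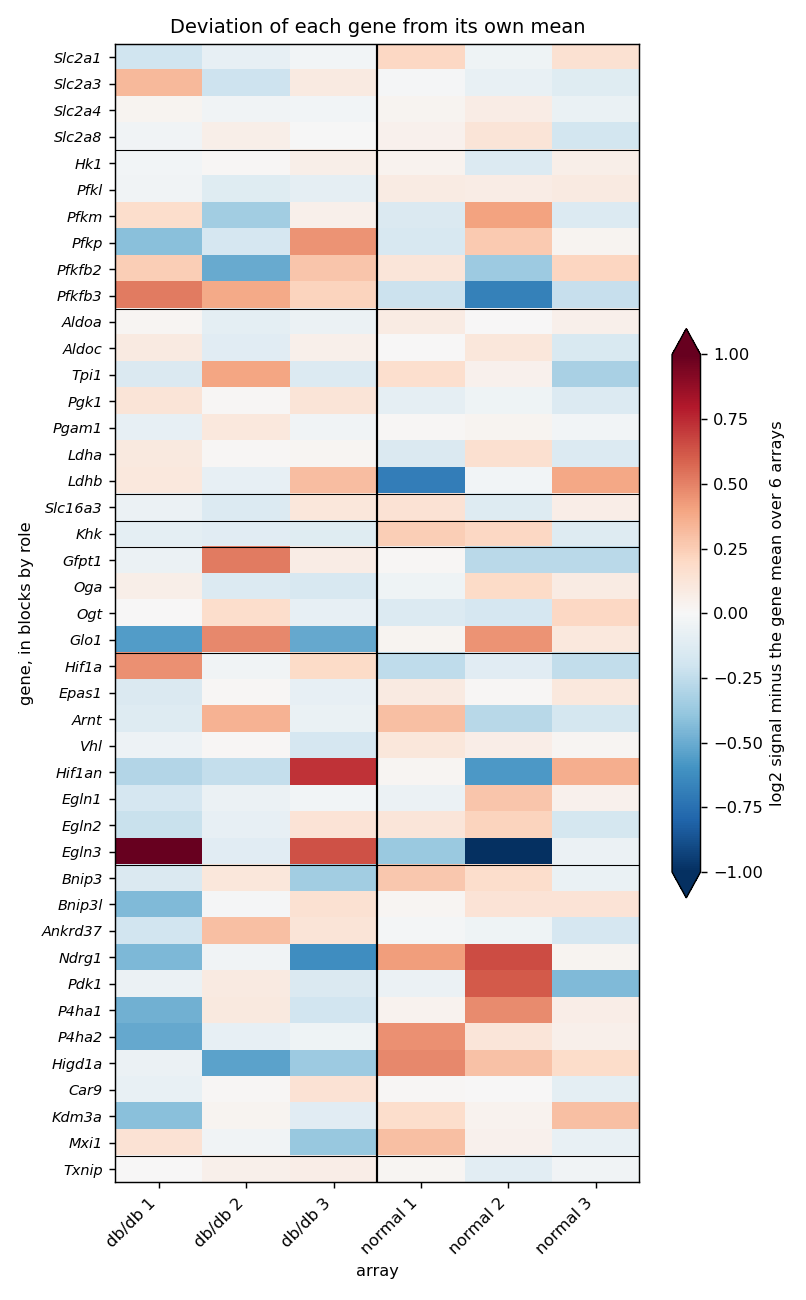
Deviation of each of the 43 genes from its own mean over 6 arrays (colour, log2 units, red above and blue below, limited at 1), with arrays as columns, db/db on the left, and genes in blocks by role. Egln3 is darkest red in db/db replicate 1 (signal 10.20) and darkest blue in normal replicate 2 (8.01), and the block of HIF targets is bluer in the db/db columns.

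Most of the 11 measured genes listed as HIF targets had changes of the other sign from Hif1a and Egln3. 9 had the lower mean in db/db GEC and 2 the higher, with a median change of -0.25, where 53.7% of all genes had the higher mean. 4 of the 11 were lower in every db/db array, beside 5.92% of all genes, and none was higher in every one, beside 7.39%. 2 of the 11 were lower at the unadjusted threshold, beside 3.07% of all genes, and none after adjustment. Higd1a is 1 of these 4 and 1 of these 2, through a probeset numbered among those of chromosome 3. The Higd1a probeset numbered with the gene's own chromosome overlapped between groups, with a change of -0.28 (limma unadjusted p = 0.201). These genes were chosen with earlier results of the same arrays known, and the count is a description. It depends on the listing, since Egln3, itself a HIF target, was listed with the regulators. Glucose carriers and glycolytic enzymes, which HIF also switches on, were listed apart too. With Egln3 added, 9 of 12 had the lower mean and 3 the higher, with a median change of -0.22. At the unadjusted threshold 1 of the 12 was then higher, beside 3.49% of all genes, and 2 lower, beside 3.07%.

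Ndrg1, a gene of growth arrest and stress that hypoxia induces, gave 9.43, 9.84 and 9.25 in db/db and 10.30, 10.53 and 9.90 in normal GEC. All db/db arrays were lower, by 0.060 at the nearest pair. The mean was 9.51 ± 0.30 in db/db and 10.24 ± 0.32 in normal GEC (SD, n = 3 each), a change of -0.73 ± 0.22 (SE), or 1.66-fold lower, with an unadjusted p of 0.0176 and an adjusted p of 0.684 (limma). The unadjusted p was 0.0527 without db/db replicate 1, 0.0557 without db/db replicate 3, 0.0501 without normal replicate 1 and 0.0506 without normal replicate 2.

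Higd1a, a mitochondrial protein induced by hypoxia, gave 10.82, 10.34 and 10.52 in db/db and 11.36, 11.17 and 11.06 in normal GEC. All db/db arrays were lower, by 0.24 at the nearest pair, with a mean of 10.56 ± 0.24 in db/db and 11.20 ± 0.15 in normal GEC (SD, n = 3 each). The change was -0.64 ± 0.15 (SE), or 1.56-fold lower, with an unadjusted p of 0.00682 and an adjusted p of 0.572 (limma). This brightest of the 2 Higd1a probesets is numbered among probesets of chromosome 3, whereas the gene lies on chromosome 9. The probeset numbered with chromosome 9 gave 9.64, 10.24 and 9.76 in db/db and 9.94, 10.32 and 10.22 in normal GEC, with overlap. Its change was -0.28 ± 0.19 (unadjusted p = 0.201, adjusted p = 0.865), so the size of the Higd1a change depends on which probeset is read.

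P4ha2 and P4ha1, subunits of the collagen prolyl hydroxylase, had similar changes. P4ha2 gave 9.20, 9.63 and 9.66 in db/db and 10.16, 9.83 and 9.76 in normal GEC. P4ha2 was lower in every db/db array, by 0.098 at the nearest pair, and the change was -0.42 ± 0.18 (unadjusted p = 0.0556, adjusted p = 0.783). P4ha1 had a change of -0.38 ± 0.19 with overlap (unadjusted p = 0.0974, adjusted p = 0.823), and of -0.53 without db/db replicate 2 (unadjusted p = 0.0399, adjusted p = 0.819). Among the 6 fits without 1 array this was the only 1 in which P4ha1 passed, and the unadjusted p reached 0.258. Kdm3a, a histone demethylase, gave 8.97, 9.41 and 9.27 in db/db and 9.57, 9.42 and 9.69 in normal GEC. The db/db arrays of Kdm3a were lower by only 0.0079 at the nearest pair, and the change was -0.34 ± 0.14 (unadjusted p = 0.0591, adjusted p = 0.784). Without db/db replicate 2 it was -0.43 (unadjusted p = 0.0337, adjusted p = 0.794). Kdm3a too passed in only this 1 of the 6 fits without 1 array, with an unadjusted p of up to 0.156.

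Bnip3l and Bnip3, which mark mitochondria for removal, did not separate. Bnip3l gave 11.14, 11.57 and 11.73 in db/db and 11.60, 11.71 and 11.71 in normal GEC, a change of -0.19 ± 0.17 in which db/db replicate 1 was the low array. The change was -0.25 for Bnip3, -0.18 for Mxi1, an antagonist of Myc, and -0.074 for Pdk1, a kinase that shuts pyruvate dehydrogenase off. Ankrd37 and Car9, the carbonic anhydrase best known as a hypoxia marker, had the higher means in db/db GEC, by 0.16 and 0.054. Ankrd37 gave 0.29 without db/db replicate 1 (unadjusted p = 0.0485, adjusted p = 0.934), the only 1 of the 6 fits without 1 array in which it passed. The highest unadjusted p of Ankrd37 among these fits was 0.746.

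5 genes, Hk1, Pgk1, Ldhb, Bnip3l and Higd1a, were read from a brightest probeset whose number falls among those of another chromosome than the gene's own, as 10 annotated probesets on each side were placed. Probe sequences were not used here, so which transcript such a probeset reads is not known, and the values printed for these genes, such as -0.64 for Higd1a and 0.22 for Ldhb, may not be those of the named gene alone. With the probesets numbered on the gene's own chromosome the changes were -0.054 for Hk1, 0.18 for Pgk1, -0.019 for Ldhb, -0.18 for Bnip3l and -0.28 for Higd1a. Of these 5 only Higd1a lay on the other side of the unadjusted threshold. In the same way Bnip3, read on its own chromosome, had a second probeset elsewhere at -0.53, and Glo1 one at -0.43, each with an interval that spans 0. The brightest Pgk1 probeset and the one numbered with chromosome 3 had the same value in every array. So had the brightest Pgam1 probeset and the one numbered with chromosome 7. Such pairs are not independent readings.

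**Figure D4:**
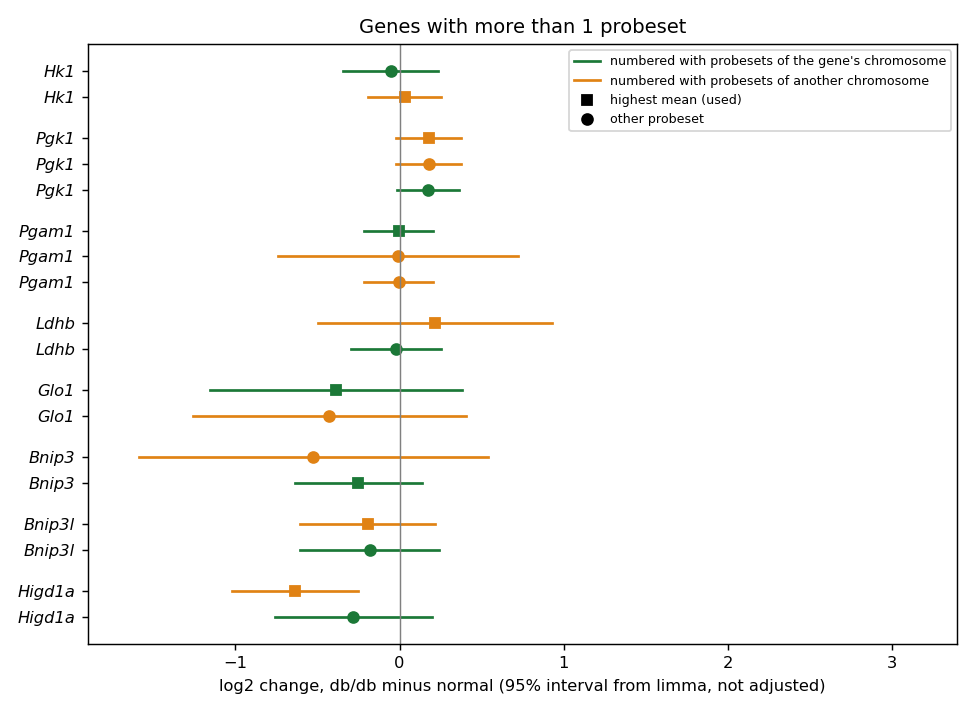
Change in log2 units, db/db minus normal (x axis), with unadjusted 95% intervals, for every probeset past the level of the 8 genes with more than 1. Squares are the brightest probesets, which were used, and orange marks probesets numbered among those of another chromosome. The Higd1a probesets differ in call, at -0.64 and -0.28. Those of Pgk1 lie together, but the brightest and the one numbered with chromosome 3 have the same value in every array.

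Txnip, which glucose induces through the factors Mlxip and Mlx and which curbs glucose uptake, gave 13.05, 13.10 and 13.11 in db/db and 13.07, 12.94 and 13.01 in normal GEC. The arrays overlapped, with a change of 0.079 ± 0.077 and a 95% interval of -0.11 to 0.27 (unadjusted p = 0.350, adjusted p = 0.903). Its relative Arrdc4, which the same factors induce, gave 9.64, 8.95 and 9.44 in db/db and 8.43, 8.67 and 8.70 in normal GEC. Every db/db array of Arrdc4 was higher, and the change was 0.74 ± 0.20 (SE, unadjusted p = 0.0104, adjusted p = 0.626). Of the factors, Mlxip was higher in every db/db array, by 0.17 ± 0.10 (unadjusted p = 0.145, adjusted p = 0.843), while Mlx had a change of -0.060 and the related Mlxipl one of -0.065, both with overlap. Klf11, a zinc finger factor of the same list, was lower in every db/db array, with a change of -0.23 (unadjusted p = 0.0646, adjusted p = 0.787).

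A further 97 genes of the same routes were named, of which 77 passed the level. None passed after adjustment. At the unadjusted threshold 5 of the 77 were higher, beside 3.49% of all genes, and 2 were lower, beside 3.07%, and the median change was 0.0048. Among them, 20 further HIF targets did not lean as the 11 above did. 13 of the 20 had the higher mean in db/db GEC, where 53.7% of all genes did, with a median change of 0.017. At the unadjusted threshold 3 of the 20 were higher, beside 3.49% of all genes, and none lower, beside 3.07%. The difference between both lists was not tested. Hilpda, a lipid droplet protein, gave 9.46, 9.92 and 9.61 in db/db and 8.78, 8.77 and 9.24 in normal GEC, a change of 0.73 ± 0.19 (SE, unadjusted p = 0.00822, adjusted p = 0.599). Ddit4, an inhibitor of mTOR signalling, had a change of 0.36 ± 0.096 (adjusted p = 0.626) and Hmox1, heme oxygenase, one of 0.46 ± 0.16 (adjusted p = 0.753). All 3 were higher in every db/db array. Vegfa, the growth factor that HIF is best known to induce, had a change of -0.28 ± 0.15 with overlap (unadjusted p = 0.118, adjusted p = 0.831). Gbe1, the glycogen branching enzyme, had a change of 0.53 ± 0.20 (adjusted p = 0.754), and Pdp2, a phosphatase that activates pyruvate dehydrogenase, one of -0.24 ± 0.074 with every db/db array lower (adjusted p = 0.692).

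**Figure D5:**
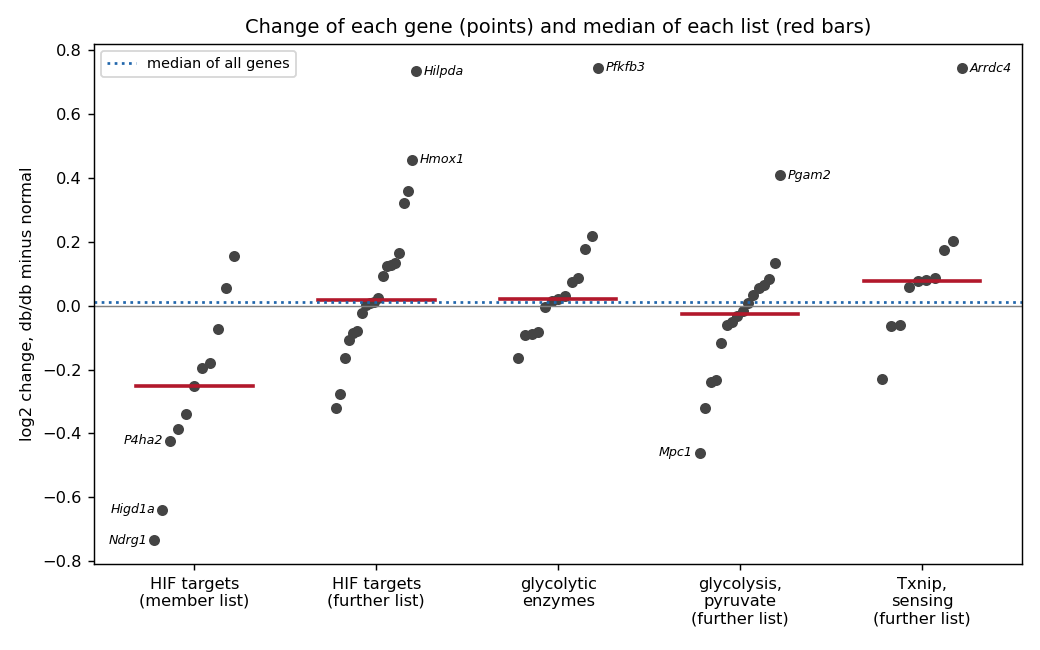
Change in log2 units, db/db minus normal (y axis), of each measured gene (points) in 5 lists (x axis), with the list median as a red bar and the median of all genes (0.012) dotted. The 11 HIF targets centre on -0.25 and the 20 further HIF targets on 0.017, with Hilpda at 0.73. The last list adds Txnip to its 9 related genes.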

How the data were processed

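RNA of sorted Tie2-GFP positive GEC was measured on 6 arrays. The deposited values are log2 probeset signal. The study states RMA normalisation in GeneSpring, while the submitters' processing notes name MAS5 alone, so which was applied is not settled here. The deposited log2 values were used as they stand, and a change is thus relative to the rest of the probesets. Of 35557 probesets, 21789 had a single gene symbol in the platform annotation, 1621 had several and 12147 none. Probesets at 100 or more (linear) in at least 3 arrays were kept, which left 20661, and a gene was read from its probeset of highest mean. Only symbols were used to match members.

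The labels gave the groups. The fit was limma 3.58.1 (R 4.3.3, lmFit and eBayes) for db/db minus normal, with two-sided p-values adjusted by Benjamini-Hochberg across the 20661 probesets and called at 0.05. The p-values set the group difference against the spread between these samples, which limma draws toward that of all probesets. With 3 arrays a group an exact two-sided permutation test reaches 0.1 at best, and none was used. The fit was first tested on simulated data, drawn independently for each array from normal distributions and so without an outlying array. At an adjusted p of 0.05 limma recovered 63% of 100 probesets changed by 1 log2 unit and 84% of 100 changed by 2. It also called 9 unchanged ones. At the methods' screen (t-test, p of 0.05 and 1.5-fold) 313 probesets passed, 3 of them members. At p of 0.05 alone 1280 did, 5 of them members, and after Benjamini-Hochberg 0. These 5 were not the 5 of limma, since Hif1a and Egln3 dropped out while Pfkl and Pgk1 passed.

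The members, lists and rules were chosen with earlier results of these data known. Values in every array were given for members at an unadjusted p of 0.05, the 2 brightest of each role, the 3 with the largest SD, and Slc2a1, Hif1a, Epas1 and Txnip. Alternatives were array weights, an intensity trend with and without a robust prior, median centring, quantile normalisation, a level of 200 or none, a replicate block, the methods' t-test, 1 probeset per gene, the mean of a gene's probesets, probesets with 1 symbol, and leaving out each array. Probesets numbered with the gene's chromosome, and marker sums without Cd68 or Calb1, were added after seeing the data. The labels number the replicates without pairing them. Motifs were searched in RefSeq windows with Python 3.11.15, and figures were drawn with matplotlib 3.10.9.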

Additional observations from a re-analysis of the deposited data

How the results depend on the processing

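No member passed the adjusted threshold under any alternative, the smallest adjusted p being 0.325, and no result reversed in a call. With 3 arrays a group the precision is low, as limma's 95% interval for Egln3, of 0.06 to 2.03, shows. Of the 43 members, 27 kept their sign under every alternative run and 16 turned at least once, the largest of these 0.22 in size (Ldhb). The 2 members lower at the unadjusted threshold became 4 with median centring, array weights, 1 probeset per gene and the mean of a gene's probesets, 1 with probesets numbered with the gene's chromosome, and 1 to 5 with 1 array left out, the lowest without db/db replicate 1, db/db replicate 3 or normal replicate 1 and the highest without db/db replicate 2. The 3 members higher became 1 to 3 with 1 array left out, 1 without db/db replicate 3 or normal replicate 1. Of the 5 members past it, Higd1a was lost only with the probeset of its own chromosome, Hif1a in 6 alternatives and Egln3 in 5, among them the methods' t-test for both, and Ndrg1 in 4, while 10 other members passed in some alternative. The cause was not tested. The split was 3 higher to 2 lower, and 3 to 4 with median centring. Over all features 0 probesets were called. 1 lower gene was called with 1 probeset per gene, with probesets of a single symbol and with the mean of a gene's probesets, where 1 higher gene was called too. None of these is a member. The median change of the members ran from -0.085 (level of 200) to -0.015 (no level filter).

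With a replicate block 2 members were higher and 3 lower at the unadjusted threshold, and none passed adjustment. Hif1a was lost (unadjusted p = 0.0660, adjusted p = 0.814) and P4ha1 gained (unadjusted p = 0.0234, adjusted p = 0.748). The correlations of deviations between arrays of the same number were -0.0039, 0.035 and -0.030, and 1 of 3 db/db arrays correlated best with its own number, so the numbers were not taken to pair the samples.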
